A study of Mus musculus with 6 samples.

Results

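Glycolysis turns glucose into pyruvate and lactate, and many of its genes are also targets of the hypoxia-inducible factor HIF-1. A list of 35 mouse genes of glucose uptake, glycolysis, lactate handling and the hypoxia response was followed here in Ba/F3 cells that carry an inducible PAX5-KIDINS220 fusion. The genes were chosen by symbol, with no measured value in the rule, though earlier results of these data were known. Each gene was read from its probe set with the highest mean signal. Of the 35, 32 were measured among 18193 genes on the arrays, and 29 had a mean signal above 52.4, the 40th percentile of all genes. Eno2, Slc16a3 and Egln3 lay under that limit and are called dim below. Gapdh was read only from the array's control probe sets and from probe sets annotated to several genes, and Gpi1 and Eno1 were not analysed here.

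Ba/F3 is a mouse haematopoietic line of BALB/c background that needs interleukin-3, which was supplied by medium conditioned by WEHI-3 cells. All cells had been transduced with the PAX5-KIDINS220 fusion (P-K220) in a retroviral Tet-on system, in which doxycycline switches the transgene on. The submitters asked which pathways respond to the fusion. There were 3 untreated arrays, Dox(-), and 3 arrays of cells treated with 500 ng/mL doxycycline, Dox(+), all with RNA taken after 24 h. The array codes split them into EA15, with 1 untreated and 1 treated array, and EA20, with 2 of each. What the codes stand for is not given, and in EA20 the treated arrays carry the lower codes, so code order and treatment cannot be told apart there. Ba/F3 cells without the fusion that received doxycycline were not analysed here, so the effects of the drug and of the fusion cannot be told apart. Whether the cells were 1 clone, and whether the arrays of a group came from separate cultures, is not stated, so p-values measure only array-to-array spread, part or all of which may be technical. In bulk RNA, fewer cells of a type and less RNA per cell cannot be told apart.

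Glucose enters cells through the SLC2A transporters, is trapped by hexokinases, passes the committed step at phosphofructokinase and reaches pyruvate through pyruvate kinase. Lactate dehydrogenase turns pyruvate into lactate, which leaves through SLC16A transporters, while pyruvate dehydrogenase kinases hold pyruvate back from the mitochondrion. HIF-1 is a pair of HIF-1α and ARNT. With oxygen, the EGLN hydroxylases mark HIF-1α for destruction by the VHL ligase, and without it HIF-1 binds short hypoxia response elements and raises many of these genes. Haematopoietic cells in culture take up glucose under the control of growth factors, interleukin-3 among them.

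The core of the hypoxia response element is ACGTG. It was searched on both strands of the RefSeq promoters of these genes, which are windows of 300 bases on GRCm38.p6. A core on the opposite strand reads as CACGT. The stretches below are a selection from promoters that hold the core. They belong to genes whose levels differed between the array sets or stand for a step of the pathway. Each is written 5′ to 3′ on the gene's strand, with the core in capitals. Bnip3, Ero1a, Hk2 and P4ha1 were higher in EA20, and the other 6 genes printed were lower. Pfkl, Pfkp and Tpi1, also lower in EA20, had no ACGTG in their windows. Ankrd37, which was higher, and Pkm, which was lower, held it but are not printed.
Bnip3 promoter, chr7:138909584-138909638, minus strand: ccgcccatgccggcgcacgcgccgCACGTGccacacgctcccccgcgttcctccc
Ero1a promoter, chr14:45318606-45318660, minus strand: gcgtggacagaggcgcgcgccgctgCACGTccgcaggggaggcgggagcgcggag
Hk2 promoter, chr6:82774477-82774531, minus strand: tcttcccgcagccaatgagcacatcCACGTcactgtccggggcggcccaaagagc
P4ha1 promoter, chr10:59323255-59323295, plus strand: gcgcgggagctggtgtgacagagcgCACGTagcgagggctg
Slc2a1 promoter, chr4:119108684-119108738, plus strand: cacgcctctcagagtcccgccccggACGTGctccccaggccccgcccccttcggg
Pgk1 promoter, chrX:106186944-106186998, plus strand: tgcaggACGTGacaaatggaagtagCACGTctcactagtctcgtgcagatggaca
Pgam1 promoter, chr19:41911732-41911786, plus strand: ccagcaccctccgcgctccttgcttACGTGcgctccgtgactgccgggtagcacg
Ldha promoter, chr7:46845745-46845799, plus strand: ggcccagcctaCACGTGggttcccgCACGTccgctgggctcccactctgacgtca
Slc16a1 promoter, chr3:104638440-104638494, plus strand: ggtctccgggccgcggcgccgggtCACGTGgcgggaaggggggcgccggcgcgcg
Pdk3 promoter, chrX:93832174-93832228, minus strand: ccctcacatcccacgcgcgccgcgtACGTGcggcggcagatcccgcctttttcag
RefSeq held 47 promoter windows for 33 of the 35 genes, and none for Slc2a3 and Ndrg1 were used here. ACGTG was present in 27 of the 47 windows (57.4%), against 19.6% of all 32851 windows. GCGTG, the other usual form of the core, was also present in 27 (57.4%), against 32.4% of all windows. In the printed Bnip3, Ldha and Slc16a1 stretches the capitals include CACGTG, in which the cores of both strands overlap. Both directions of the array-set difference held genes with the core, in 5 of 5 windows of the genes that were higher in EA20 and 9 of 15 windows of those that were lower. These matches are a description of letters and do not show binding.

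Every array had been scaled to the same trimmed mean signal of 500, and median signals ran from 56.3 to 65.6. Correlations of log2 signals were 0.977 to 0.982 within an array set and 0.954 to 0.960 between sets. The 3′ to 5′ ratio of the Gapdh control probe sets, a sign of RNA quality, differed by 0.01 (log2) with doxycycline (two-sided exact permutation p = 0.80; the smallest p that 3 against 3 arrays can give is 0.10). Between the sets it differed by -0.06 (two-sided exact permutation p = 0.13). With 4 against 2 arrays this test cannot give a p under 0.05, so it does not show equal RNA quality. Of 13 Ba/F3 identity genes measured, 8 were above the dim limit and none had a signal of 0. Pax5 signal was 23.9 in the untreated and 51.6 in the treated EA15 array, 92 and 81.4 in the untreated EA20 arrays, and 133 and 48.1 in the treated EA20 arrays. Kidins220 signal was 2289 in the untreated and 2546 in the treated EA15 array, 4154 and 3982 in the untreated EA20 arrays, and 4243 and 4438 in the treated EA20 arrays. Neither passed with doxycycline (log2 0.21, SE 0.39, limma adjusted p = 0.9 for Pax5, and 0.11, SE 0.06, adjusted p = 0.51 for Kidins220). Whether these probe sets read the transgene is not given in the sources used here, so they do not check the induction.

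With doxycycline, no gene of the list passed the test. The fit (limma on log2(signal + 16), array set as a block, Benjamini-Hochberg adjusted over all genes, threshold 0.05) called 0 of the 32 measured genes, beside 36 of 18193 genes, or 0.198%. At an unadjusted p under 0.05 there were 2 of the 32, Hk3 and Ero1a, beside 2015 of all genes. Without the block 0 genes were called in all (0% of 18193), with 1 of the 32 (Hk3) and 470 of all genes at an unadjusted p under 0.05. The fitted difference was above 0 for 22 genes and below 0 for 10, with a median of 0.06 (log2), beside a median of 0.00 over all genes. For 23 of the 32 genes the 95% interval of the doxycycline difference lay within 1.5-fold in either direction. The other 9 were Hk3, Ero1a, Bnip3, Ankrd37, Aldoc and Ldhb and the dim Eno2, Slc16a3 and Egln3. Hk3 and Slc16a3 were the 2 genes whose 3 treated arrays all lay above the 3 untreated ones (6.25%, beside 3.84% of all genes in that direction), and no gene of the list lay wholly below, beside 3.06% of all genes and 6.9% in either direction.

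**Figure D1:**
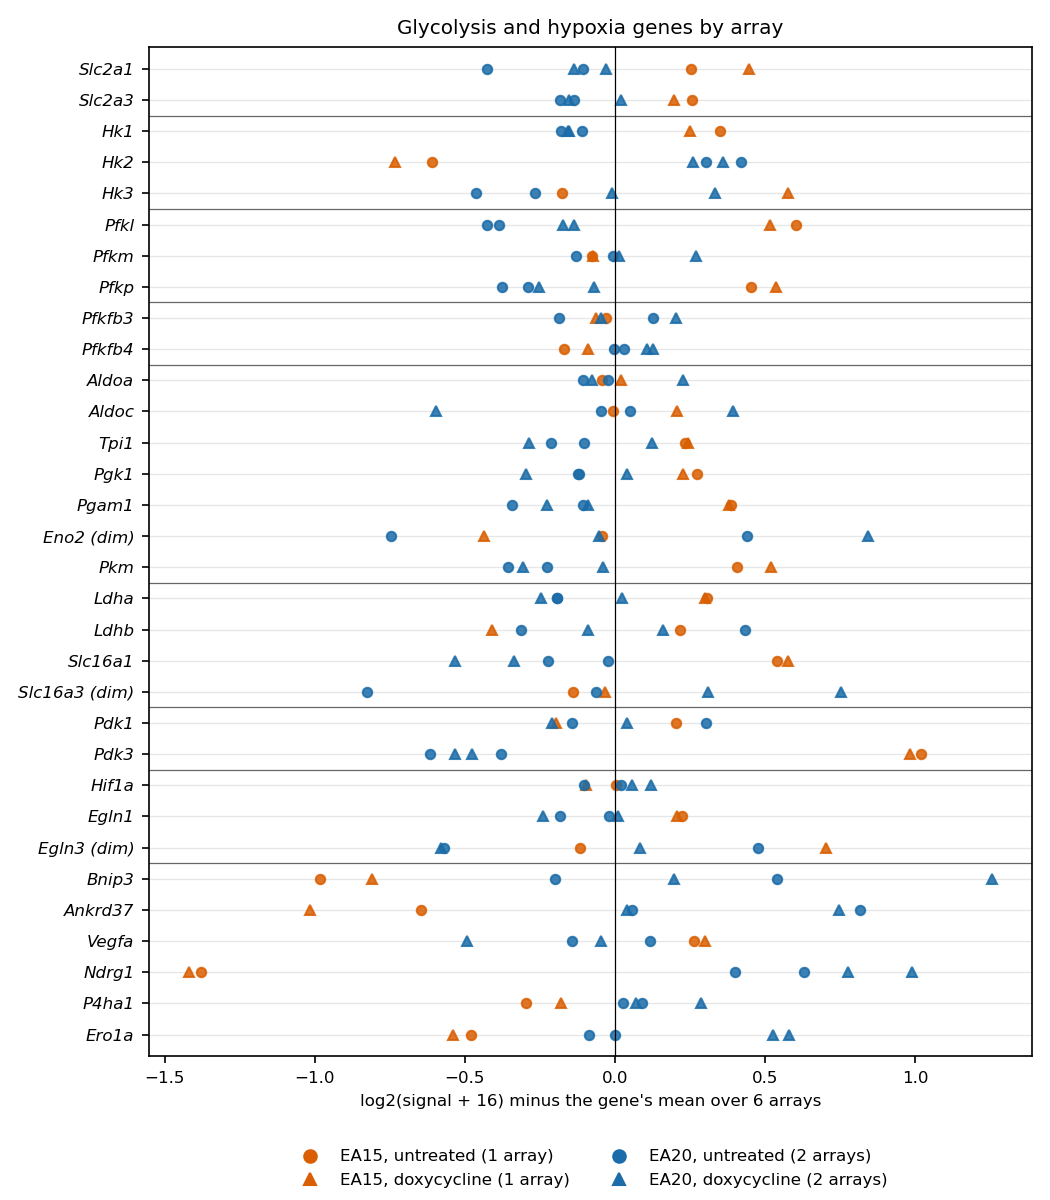
Level of each measured gene on each of the 6 arrays, as log2(signal + 16) minus that gene's mean over the arrays. Symbols mark the array set and the treatment; the arrays do not overlap between array sets for 21 of 32 genes (46.1% of all genes) and between treatments for 2 of 32 (6.9% of all genes).

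Hexokinase 3, encoded by Hk3, is the hexokinase typical of myeloid cells, and it had the smallest p of the list. Its signal was 1156 in the untreated and 1959.9 in the treated EA15 array, 1086 and 946 in the untreated EA20 arrays, and 1299.6 and 1654 in the treated EA20 arrays. In each set the treated arrays were above the untreated ones. The difference was 0.60 (log2, SE 0.10), or 1.52-fold (95% interval 1.29 to 1.79), with a limma adjusted p of 0.074, rank 68 of 18193 genes. Within EA15 the difference was 0.75, from 1 array each, and within EA20 it was 0.53 (adjusted p = 0.15). The difference between the sets in response was -0.23 (adjusted p = 0.89). The adjusted p crossed the threshold under 4 of the other settings and lay between 0.028 and 0.049 there. These were leaving out dim genes, averaging a gene's probe sets, a pseudocount of 1, and leaving out probe sets whose suffix marks them as shared between transcripts (_s, _x or _a). It was above the threshold under the rest, at 0.57 without the trend, 0.999878 without the block, 0.12 with a pseudocount of 64 and 0.13 to 0.34 when any 1 array was left out. The summed signal of the myelomonocytic markers was 2568 to 3341 in the untreated and 2355 to 3380 in the treated arrays, with Cebpa, Elane and Cd14 dim. Hk1 and Hk2, the hexokinases of most growing cells, had differences of -0.04 and -0.08 (adjusted p = 0.85 and 0.72).

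Ero1a, the oxidase that makes disulfide bonds in the endoplasmic reticulum and a known hypoxia target, was the gene of the list that passed within EA20 alone. There, 1 of 32 genes rose, beside 0.302% of all genes, and none fell, beside 0.11%; in either direction 75 of 18193 genes passed, or 0.412%. Its signal was 3984 in the untreated and 3819.6 in the treated EA15 array, 5236 and 5559 in the untreated EA20 arrays, and 8024 and 8317 in the treated EA20 arrays. Both treated EA20 arrays were above both untreated ones, while the 2 EA15 arrays were nearly level. Within EA20 it rose by 0.60 (log2, SE 0.07), or 1.51-fold (95% interval 1.35 to 1.69, limma adjusted p = 0.029). Its EA15 difference was -0.06. Within EA20, 3 of the 12 growth and proliferation genes passed as lower, Fbl (-0.59, log2, adjusted p = 0.022), Mki67 (-0.60, 0.029) and Rrm2 (-0.49, 0.043). Of 7 mast and basophil markers 5 were above 0 within EA20, and 1, the mast cell marker Ms4a2, passed (1.69-fold, adjusted p = 0.03). The other 2 were below 0 and did not pass, Cma1 (-0.51, log2, adjusted p = 0.18) and the dim Mcpt8 (-1.13, 0.25). The part of these in the Ero1a value was not tested. With all 6 arrays the difference was 0.38 (SE 0.12, adjusted p = 0.27). Adjusted p ran from 0.13 to 0.26 when any 1 of the 4 EA20 arrays was left out. It was also above 0.05 without the mean-variance trend (0.42), with a pseudocount of 64 (0.053), and with the probe sets averaged (0.054). With every probe set tested by itself, 1 of its 3 probe sets passed (0.69, log2, adjusted p = 0.035), while the brightest (0.60, 0.051) and the third (0.75, 0.068) did not. Leaving out either EA15 array from the blocked fit left the EA20 contrast, with an adjusted p of 0.031 and 0.032.

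A direct test of whether the doxycycline response differed between the sets (limma interaction) called none of the 32 genes and 0% of all 18193. At an unadjusted p under 0.05 it held 2 of the 32, Ero1a and Pfkl, and 1222 of all genes. For Ero1a the interaction was 0.66 (log2, SE 0.12, adjusted p = 0.34). Of the 32 genes, 19 had the same sign of difference in both sets, with no share over all genes to set beside it.

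**Figure D2:**
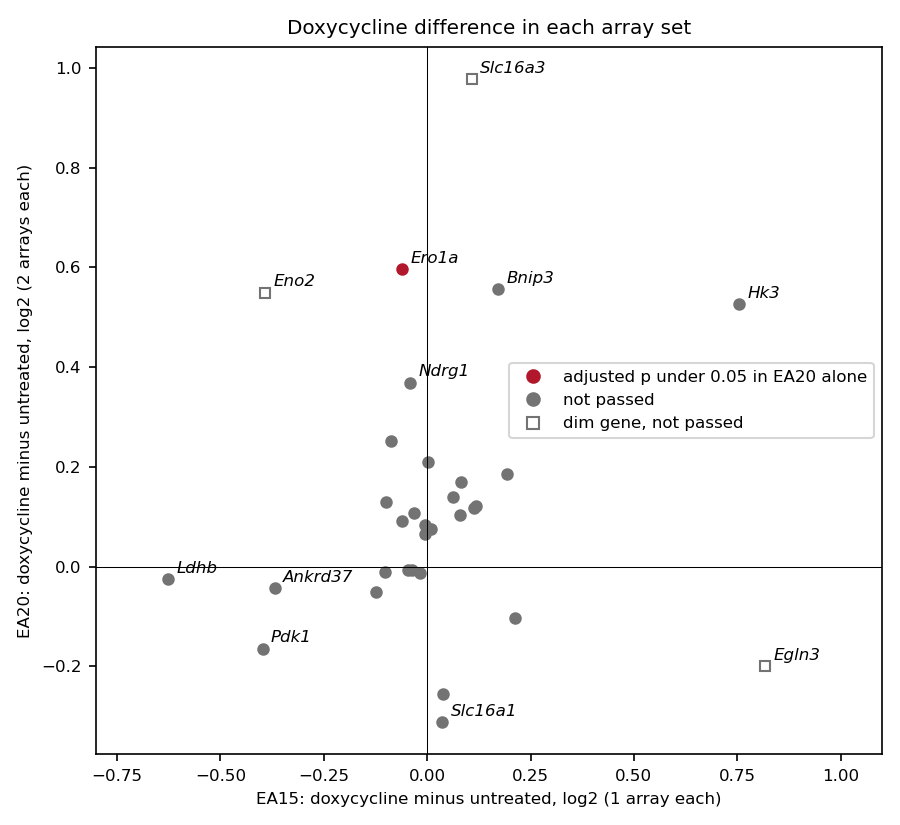
Doxycycline minus untreated in EA15 (x axis, log2, 1 array each) against EA20 (y axis, log2, 2 arrays each), 1 point per gene. Hk3 lies high on both axes, at 0.75 and 0.53, and Ero1a lies at -0.06 and 0.60.

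The other genes with the smallest p in the doxycycline fit all missed the threshold. Toward higher signal these were Ndrg1, Slc2a1 and Pfkp. Slc2a1, the main glucose transporter of growing cells, read 1802 in the untreated and 2062 in the treated EA15 array, 1117 and 1398 in the untreated EA20 arrays, and 1372 and 1477 in the treated EA20 arrays. The treated array was above the untreated one in EA15, and in EA20 the groups overlapped, with a difference of 0.19 over both sets (SE 0.09; 1.14-fold, 95% interval 0.993 to 1.31; limma adjusted p = 0.48). Pfkp, a phosphofructokinase subunit, differed by 0.14 (SE 0.07, adjusted p = 0.49), and Ndrg1, a stress and hypoxia gene, by 0.23 (SE 0.11, adjusted p = 0.5).

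Toward lower signal the smallest p values belonged to Slc16a1, Pdk1, Hk2, Vegfa and Ldhb. Slc16a1, which carries lactate out of the cell, had a difference of -0.20 (SE 0.09; 0.873-fold, 95% interval 0.753 to 1.01; limma adjusted p = 0.5). It read 0.04 in EA15 and -0.31 in EA20 (adjusted p = 0.24), so the sign was not shared. Pdk1, a kinase that switches off pyruvate dehydrogenase, read 961 in the untreated and 725 in the treated EA15 array, 752 and 1032 in the untreated EA20 arrays, and 718 and 857 in the treated EA20 arrays. The EA20 groups overlapped, and the difference was -0.24 (SE 0.13, adjusted p = 0.54). Ldhb, the heart-type lactate dehydrogenase subunit, read 241 in the untreated and 150.1 in the treated EA15 array, 282 and 162 in the untreated EA20 arrays, and 231 and 192 in the treated EA20 arrays. Its arrays overlapped, with a difference of -0.23 (SE 0.24, adjusted p = 0.8), and those of Hk2 and Vegfa were -0.08 and -0.16 (adjusted p = 0.72 and 0.75).

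The central enzymes were close to their untreated level. For Pgk1, phosphoglycerate kinase, treated over untreated was 0.986 (95% interval 0.856 to 1.14, limma adjusted p = 0.96). For Ldha, lactate dehydrogenase A, it was 1.04 (95% interval 0.91 to 1.18, adjusted p = 0.88). Aldoa, the main aldolase, differed by 0.11 (log2, SE 0.09, adjusted p = 0.7) and Pkm, pyruvate kinase M, by 0.12 (SE 0.08, adjusted p = 0.66). For Hif1a, the oxygen-regulated subunit of HIF-1, the difference was 0.05 (SE 0.07, adjusted p = 0.84). HIF-1α is controlled mostly as a protein, which arrays do not measure. On the Gapdh control probe sets the doxycycline differences ran from -0.01 to 0.04 in the sets. The less bright Gapdh probe sets shared with a related sequence gave 0.11 and 1.66 in EA15 and -0.54 and -0.50 in EA20, read without a test. A list of 12 growth and proliferation genes was below 0 in all 12 (median -0.24, 0 passed, 9 at an unadjusted p under 0.05), and its part in these values was not tested.

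Many more genes differed between the array sets than with doxycycline. EA20 minus EA15, from the same limma fit, passed for 19 of the 32 genes (59.4%), beside 33.6% of all 18193 genes and 54.1% of the 10916 genes above the dim limit. Of the 29 genes of the list above that limit the share was 65.5%, with 20.7% higher and 44.8% lower, beside 28% and 26.1% of all genes above it. In EA20, 6 of 32 (18.8%) were higher beside 17.3% of all genes, and 13 of 32 (40.6%) were lower beside 16.3%. The median difference was -0.23 (log2), beside 0.04 over all genes. Of the 21 measured genes of uptake, glycolysis and lactate, 11 were lower and 1, Hk2, was higher, with a median of -0.34. The other 11 genes, of pyruvate dehydrogenase kinase, HIF-1 control and other hypoxia responses, held 5 that were higher and 2 that were lower (Pdk3 and Egln1), with a median of 0.07. Centring each array on its median moved the median of all genes to -0.08 and that of the list to -0.35, with 5 genes higher and 15 lower.

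**Figure D3:**
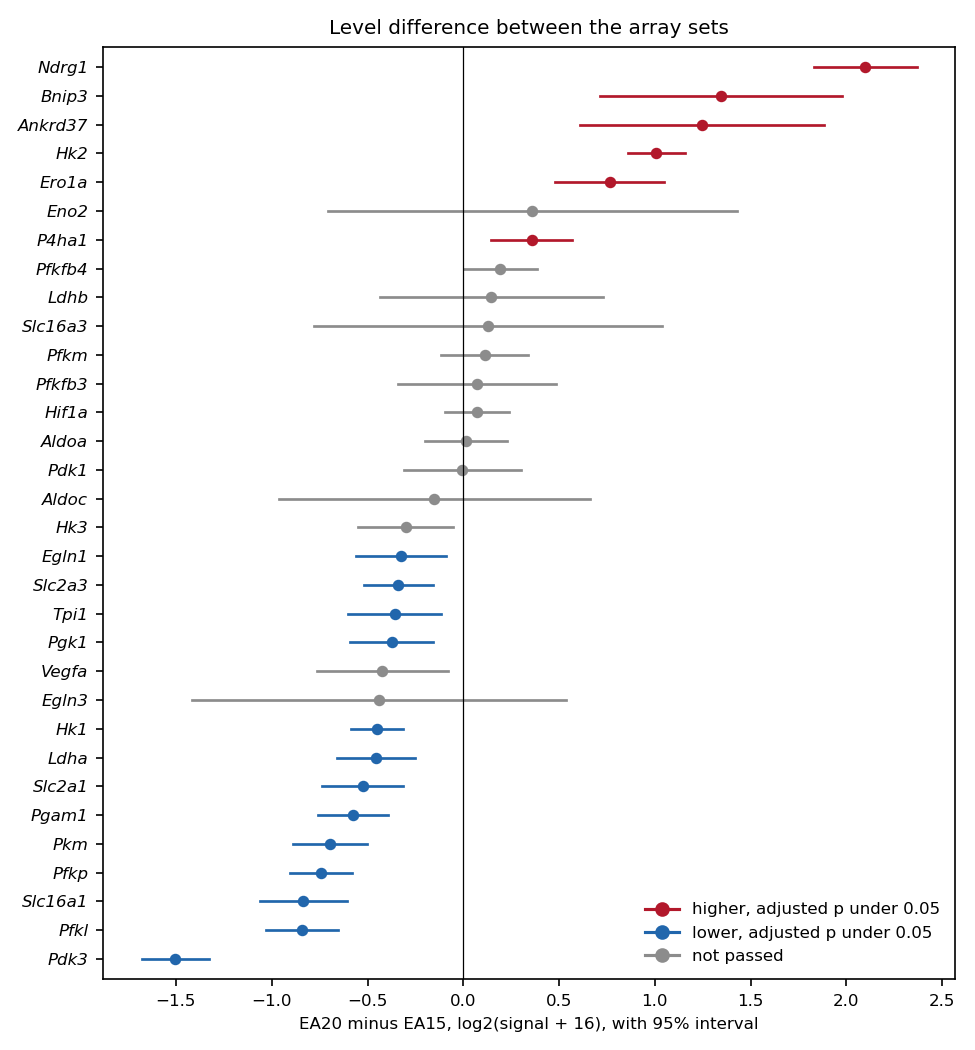
EA20 minus EA15 for each measured gene, in log2(signal + 16), with its 95% interval from the limma fit. Ndrg1 (2.10) stands at one end and Pdk3 (-1.50) at the other, and 18 of the 32 genes lie below 0.

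Other genes moved with the array set too. The 12 growth and proliferation genes were lower in 10 and higher in 0, with a median of -0.84, and their summed signal was 152687 to 157262 in EA15 and 89350 to 113448 in EA20. Summed Ba/F3 identity markers were 23958 to 25727 in EA15 and 58697 to 64909 in EA20. Csf2rb, Csf2rb2, Il3ra, Ptprc, Spn and Cd79b were the 6 that passed as higher, and Il7r, Ebf1, Cd79a, Kit and Rag1 were dim. Myelomonocytic markers (9 of 10 measured) summed to 2355 to 2568 in EA15 and 3140 to 3380 in EA20. Singly, 3 passed as higher and 1, Lyz2, as lower, at 0.671 of its EA15 level (limma adjusted p = 0.045). Mast and basophil markers (7 of 7) summed to 312 to 404 and 1068 to 1388, with Mcpt8, Cpa3, Tpsb2 and Hdc dim. Erythroid markers (4 of 7) summed to 1873 to 2807 and 3932 to 4703, and T cell markers (5 of 8) to 146 to 166 and 407 to 465, with Cd3e, Cd4 and Cd2 dim. By gene, 2 mast and basophil, 2 erythroid and 1 T cell marker passed as higher, and 0 as lower. In each of the mast and basophil and the T cell lists, 2 markers were below 0, and in the erythroid list 1 was. The part of these in the differences of glycolysis and hypoxia genes was not tested. Since the labels do not say what the sets are, no biological condition can be tied to them.

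Both glucose transporters measured were lower in EA20. Slc2a1 was at 0.694 of its EA15 level (95% interval 0.601 to 0.803, limma adjusted p = 0.0016), and its 4 EA20 arrays (1117 to 1477) all lay below its EA15 arrays (1802 and 2062). Slc2a3, a transporter with high affinity for glucose, was at 0.791 (95% interval 0.699 to 0.895, adjusted p = 0.0079) on its brightest probe set. Its call depended on the probe set. The mean of its 4 probe sets gave -0.01 (log2, adjusted p = 0.95), and without shared probe sets it was 0.17 (adjusted p = 0.11). It was also lost when the untreated EA15 array was left out (adjusted p = 0.13).

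The hexokinases split. Hk2, the inducible hexokinase that binds mitochondria, read 2501 in the untreated and 2296 in the treated EA15 array, 4730.5 and 5122 in the untreated EA20 arrays, and 4583 and 4921 in the treated EA20 arrays. All EA20 arrays were above both EA15 arrays, and the difference was 2.01-fold (95% interval 1.82 to 2.23, limma adjusted p = 3.9e-06). Hk1, the widely expressed hexokinase, went the other way and read 3608 in the untreated and 3362 in the treated EA15 array, 2495 and 2617 in the untreated EA20 arrays, and 2534 and 2538 in the treated EA20 arrays. It was at 0.732 of its EA15 level (95% interval 0.667 to 0.804, adjusted p = 0.00028), with no overlap between sets. Hk3 had a difference of -0.30 (log2, SE 0.11, adjusted p = 0.067) on its brightest probe set. Its second probe set, with every probe set tested by itself, gave -0.43 (adjusted p = 0.0056).

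Phosphofructokinase subunits also differed from each other. Pfkp, the platelet-type subunit, read 3989 in the untreated and 4221 in the treated EA15 array, 2238 and 2376 in the untreated EA20 arrays, and 2435 and 2769 in the treated EA20 arrays, and it was at 0.598 of its EA15 level (95% interval 0.535 to 0.669, limma adjusted p = 3.8e-05). Pfkl, the liver-type subunit, read 2701 in the untreated and 2543 in the treated EA15 array, 1314 and 1351 in the untreated EA20 arrays, and 1568 and 1612 in the treated EA20 arrays. Every EA20 array of both was below every EA15 array, and Pfkl was at 0.558 (95% interval 0.49 to 0.636, adjusted p = 4.3e-05). A second Pfkl probe set was lower too (-0.43, log2). The dimmest of its 3 probe sets, which alone is left when shared probe sets are dropped, gave 0.29 (adjusted p = 0.36). Pfkm, the muscle-type subunit, was nearly level (0.11, SE 0.10, adjusted p = 0.48). Pfkfb3 and Pfkfb4, which set the level of the phosphofructokinase activator fructose-2,6-bisphosphate, differed by 0.07 and 0.19 and did not pass (adjusted p = 0.83 and 0.12).

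From aldolase to pyruvate kinase, 4 of 7 measured enzymes were lower in EA20 and none was higher. Over all genes 16.3% were lower and 17.3% higher, and above the dim limit 26.1% and 28%. Pkm read 11269 in the untreated and 12193 in the treated EA15 array, 6638 and 7264 in the untreated EA20 arrays, and 6863 and 8274 in the treated EA20 arrays, all EA20 arrays below both EA15 arrays, and was at 0.618 of its EA15 level (95% interval 0.54 to 0.707, limma adjusted p = 0.00017). Pgam1, phosphoglycerate mutase, was at 0.671 (95% interval 0.592 to 0.761, adjusted p = 0.00037). Pgk1 read 17744 in the untreated and 17175 in the treated EA15 array, 13508 and 13490.2 in the untreated EA20 arrays, and 11958 and 15095 in the treated EA20 arrays, and it was at 0.772 (95% interval 0.664 to 0.897, adjusted p = 0.013). The other Pgk1 probe sets, each tested by itself, gave -0.03 (adjusted p = 0.87) and -1.07 (adjusted p = 0.0014), so the size depends on the probe set. Tpi1, triose phosphate isomerase, was at 0.78 (adjusted p = 0.029). The Pgk1 call was lost without the untreated or the treated EA15 array (adjusted p = 0.12 and 0.096). The Tpi1 call was lost without any 1 of 5 arrays (adjusted p 0.053 to 0.21), all but the third treated array. Aldoa read 16048 in the untreated and 16769.8 in the treated EA15 array, 15353 and 16242 in the untreated EA20 arrays, and 15665 and 19333 in the treated EA20 arrays, with sets that overlapped and a difference of 0.02 (log2, SE 0.09, adjusted p = 0.94). Aldoc and the dim Eno2, forms typical of brain, read 43.3 to 102 and 7.91 to 56 over the arrays and had adjusted p of 0.82 and 0.65. The 3 Gapdh control probe sets, read without a test, differed by -0.27 to -0.19. The bright Gapdh probe set shared with related sequences differed by -0.05, and the less bright shared ones by -0.92 and -0.13.

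Of the 4 lactate genes, 2 were lower in EA20 and none was higher, beside 16.3% and 17.3% of all genes. Ldha read 20498 in the untreated and 20420.5 in the treated EA15 array, 14491 and 14495 in the untreated EA20 arrays, and 13983 and 16848 in the treated EA20 arrays, without overlap, and was at 0.729 of its EA15 level (95% interval 0.634 to 0.838, limma adjusted p = 0.003; 0.055 without the untreated EA15 array). Slc16a1 read 9889 in the untreated and 10144 in the treated EA15 array, 6696 and 5826 in the untreated EA20 arrays, and 4701 and 5384 in the treated EA20 arrays. Its EA20 arrays were all lower, at 0.56 of the EA15 level (95% interval 0.479 to 0.656, adjusted p = 0.00015). Ldhb and the dim Slc16a3, the lactate exporter of highly glycolytic cells, did not pass (0.15 and 0.13, adjusted p = 0.75 and 0.87).

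**Figure D4:**
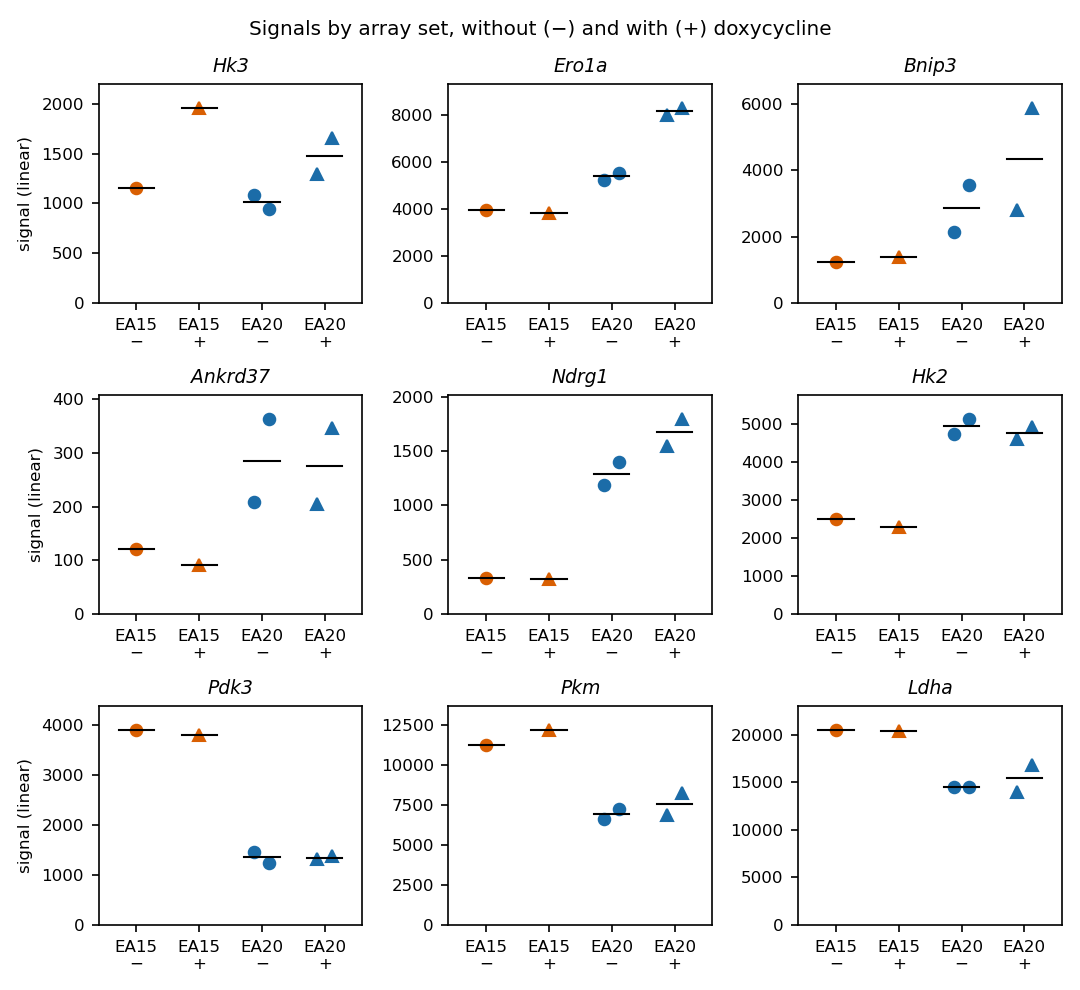
Linear signal of selected genes on each array, by array set without (−) and with (+) doxycycline; each point is 1 array, 1 per group in EA15 and 2 per group in EA20, horizontal lines are means, and each axis starts at 0. Hk2, Ndrg1 and Bnip3 are higher in EA20, Pdk3, Pkm and Ldha are lower, and in the Ero1a panel both treated EA20 arrays (8024 and 8317) lie above the rest.

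Of the kinases that inhibit pyruvate dehydrogenase, Pdk3 read 3910.2 in the untreated and 3812 in the treated EA15 array, 1473 and 1245 in the untreated EA20 arrays, and 1321 and 1376 in the treated EA20 arrays. All 4 EA20 signals were less than 1 in 2 of either EA15 signal, and Pdk3 was at 0.353 of its EA15 level (95% interval 0.312 to 0.398, limma adjusted p = 1.2e-06), the lowest of the list. Pdk1 was level on its brightest probe set (-0.01, SE 0.14, adjusted p = 0.98), but its other probe sets did not share a direction (-0.52 to 0.57). Tested by itself, the lowest of these passed (-0.52, limma adjusted p = 0.010), and the highest did not (0.57, 0.13).

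Hif1a read 4628 in the untreated and 4319.7 in the treated EA15 array, 4686 and 4298 in the untreated EA20 arrays, and 4807 and 5019 in the treated EA20 arrays. The sets overlapped, and the difference was 0.07 (SE 0.07, limma adjusted p = 0.56). With every probe set tested by itself, another of its 4 probe sets passed as lower (-0.50, adjusted p = 0.0089). Egln1, the main oxygen-dependent hydroxylase of HIF-1α, was at 0.799 of its EA15 level (adjusted p = 0.039), a call lost without any 1 of 4 arrays (adjusted p 0.097 to 0.18). These were the 2 EA15 arrays, the third untreated array and the second treated array. Egln3, a hydroxylase that hypoxia induces in many cells, was dim, at 4.84 to 34.7 (adjusted p = 0.52).

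Among the other hypoxia genes 5 of 6 were higher in EA20, with a median of 1.01 (log2). All 6 were above the dim limit, where 28% of all genes were higher, beside 17.3% of all 18193 genes. Ndrg1 read 335 in the untreated and 325 in the treated EA15 array, 1187 and 1395 in the untreated EA20 arrays, and 1548 and 1794 in the treated EA20 arrays. Every EA20 array was more than 3-fold above both EA15 arrays, and the fitted difference was 4.28-fold (95% interval 3.55 to 5.16, limma adjusted p = 2e-06), with all 5 of its probe sets in the same direction (1.46 to 2.38). Bnip3, a mitochondrial protein that drives mitophagy and cell death, read 1232 in the untreated and 1389 in the treated EA15 array, 2133 and 3566 in the untreated EA20 arrays, and 2809 and 5872 in the treated EA20 arrays. The EA20 arrays were all above the EA15 arrays but spread widely, and the difference was 2.54-fold (95% interval 1.64 to 3.94, adjusted p = 0.0043). Ankrd37, an ankyrin repeat gene induced by HIF-1, read 122 in the untreated and 90.5 in the treated EA15 array, 208 and 363 in the untreated EA20 arrays, and 205 and 345 in the treated EA20 arrays and differed 2.37-fold (95% interval 1.53 to 3.69, adjusted p = 0.0068). Without the treated EA15 array the calls of Bnip3 and Ankrd37 were lost (adjusted p = 0.10 and 0.11).

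Ero1a was 1.7-fold higher in EA20 (95% interval 1.39 to 2.07, limma adjusted p = 0.0011), and its untreated EA20 arrays alone (5236 and 5559) were above both EA15 arrays. Its other probe sets gave 0.30 (log2, adjusted p = 0.17) and 0.84 (adjusted p = 0.0028). P4ha1, a collagen prolyl hydroxylase subunit, read 553 in the untreated and 601 in the treated EA15 array, 696 and 728 in the untreated EA20 arrays, and 718 and 837 in the treated EA20 arrays, all EA20 arrays above the EA15 arrays. It differed 1.28-fold (95% interval 1.1 to 1.48, adjusted p = 0.015), a call lost without either EA15 array (0.087 and 0.098) or with median centring (0.092), and its second probe set gave 0.14 (log2, adjusted p = 0.38). Vegfa, the vascular growth factor, ran the other way and read 623 in the untreated and 639.9 in the treated EA15 array, 467 and 561 in the untreated EA20 arrays, and 500.2 and 363 in the treated EA20 arrays. Its EA20 arrays were all below its EA15 arrays, and the difference of -0.42 (log2, SE 0.15) missed the threshold (adjusted p = 0.061). Its second probe set, with every probe set tested by itself, gave -0.98 (adjusted p = 0.00048). Vegfa passed under some settings, among them leaving out the third untreated or the second treated array (0.047 and 0.045).

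Over the list, 24 of 32 genes kept the sign of the set difference in the untreated and in the treated arrays. The share over all genes is not given for this count. In the set comparison 7 genes were wholly higher (21.9%, beside 24.6% of all genes) and 14 wholly lower (43.8%, beside 21.5%), so that 65.6% did not overlap in either direction, beside 46.1% of all genes.

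The rest of the pathway was read from 5 lists of other genes, none of which had a gene that passed with doxycycline over all 6 arrays. For genes of these lists, the first value in parentheses is the log2 difference and the second the limma adjusted p, unless named otherwise. Among 22 other glycolysis genes the doxycycline difference was above 0 for 17 (median 0.16), with the smallest p for Eno3, muscle enolase (0.29, SE 0.07, limma adjusted p = 0.15), Bsg, the chaperone of lactate transporters (0.18, adjusted p = 0.25), and Gpd2, mitochondrial glycerol phosphate dehydrogenase (0.19, adjusted p = 0.27). At an unadjusted p under 0.05 there were 4. For these counts in each list, the background was 2015 of all 18193 genes, and 1640 of the 10916 genes above the dim limit. Of 10 pentose phosphate genes, 3 reached an unadjusted p under 0.05, led by Rpia, ribose phosphate isomerase (0.33, SE 0.07, adjusted p = 0.11), Prps1 (-0.29, 0.28) and Prps2 (-0.22, 0.44). Pyruvate dehydrogenase genes numbered 12, with 1 at an unadjusted p under 0.05, Pdhx (-0.33, adjusted p = 0.24), and the dim Pdk2 (0.60, 0.53) and Pdk4 (-0.66, 0.59) behind it. Other hypoxia targets numbered 38, with 6 at an unadjusted p under 0.05, among them Kdm6b (0.29, adjusted p = 0.24), Insig2 (0.24, 0.26) and Car12 (-0.46, 0.38).

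Of 14 HIF regulators, 0 passed over all 6 arrays and 0 reached an unadjusted p under 0.05; the smallest p values belonged to the dim Arnt2 (-0.90, adjusted p = 0.45), Arnt (0.35, 0.53) and Crebbp (-0.11, 0.61). Arnt, the constant partner of HIF-1α, read 846 in the untreated and 659 in the treated EA15 array, 805 and 782 in the untreated EA20 arrays, and 1322 and 1280.0 in the treated EA20 arrays. As with Ero1a, both treated EA20 arrays were above the untreated ones and the treated EA15 array was not. Within EA20 it rose 1.63-fold (95% interval 1.44 to 1.84, limma adjusted p = 0.022). In EA15 it read -0.35 (log2), and the interaction was 1.05 (SE 0.14, adjusted p = 0.14). It passed without dim genes (adjusted p = 0.032), a setting that called 30 of 10916 genes, and under no other setting run. The growth genes and Ms4a2 that passed within EA20 moved beside it too, though 2 of the 7 mast and basophil markers were below 0 there. The part of these genes was not tested. The EA20 call was lost with the mean of its probe sets (0.05, log2; adjusted p = 0.94), without the trend (0.36) and when any 1 EA20 array was left out (0.12 to 0.26).

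Between the sets, 50 of the 96 genes of these lists passed (52.1%), beside 33.6% of all genes, or 17.3% higher and 16.3% lower. Of their 75 genes above the dim limit 50 passed (66.7%), beside 54.1% of all genes above it. Of 22 glycolysis genes outside the first list, 7 were lower in EA20, 2 were higher and 13 did not pass. Lower were Bsg (-0.59, limma adjusted p = 3.8e-05), Pgm2 (-0.36, 0.0021), Slc2a8, Pfkfb2, Pgm1, Gpd2 and Eno3, and higher were the transporters Slc2a9 (0.95, 0.0026) and Slc2a6. In the pentose phosphate list 4 were lower and 2 higher of 10. Prps1, which makes the nucleotide precursor PRPP, was lower (-1.27, adjusted p = 1.1e-05), as were Pgls (-0.73, 4.6e-05), Rpe and Pgd, while Taldo1, transaldolase, was higher (0.88, 1.4e-05), as was Rpia.

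Pyruvate dehydrogenase genes held 5 lower and 3 higher of 12. The subunits Dld (-0.59, limma adjusted p = 6.3e-05), Dlat, Pdhb and Pdhx were lower with Pck2, mitochondrial PEP carboxykinase, at 0.376 of its EA15 level (adjusted p = 1.3e-06). Pcx, pyruvate carboxylase, was 3.86-fold higher (adjusted p = 1.1e-06), and the phosphatase genes Pdp2 and Pdpr were higher too. Of 14 HIF regulators 4 were higher, the coactivators Crebbp (0.68, adjusted p = 6.7e-05) and Ep300 with Hif1an and Hif3a, and 4 lower, the VHL ligase parts Cul2 (-0.71, 0.0001), Elob (-0.33, 0.0018) and Eloc with Cited2.

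Other hypoxia targets went both ways, with 9 higher and 10 lower of 38 and a median of 0.14. Pnrc1, a nuclear receptor coregulator, was 3.69-fold higher in EA20 (limma adjusted p = 2e-07). Mxi1, an antagonist of MYC, was 2.09-fold higher (adjusted p = 2.1e-06), and Kdm3a, a histone demethylase, 2.32-fold (adjusted p = 3.4e-06). Kdm4c, Kdm6b, Plod1, Gbe1, Insig2 and Wsb1 were also higher. Lower were Bhlhe40 (-1.13, 2.7e-05), Car12, Mif, Hmox1, Higd1a, Sap30, Fam162a, Ak4, Tfrc and Ddit4.

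**Figure D5:**
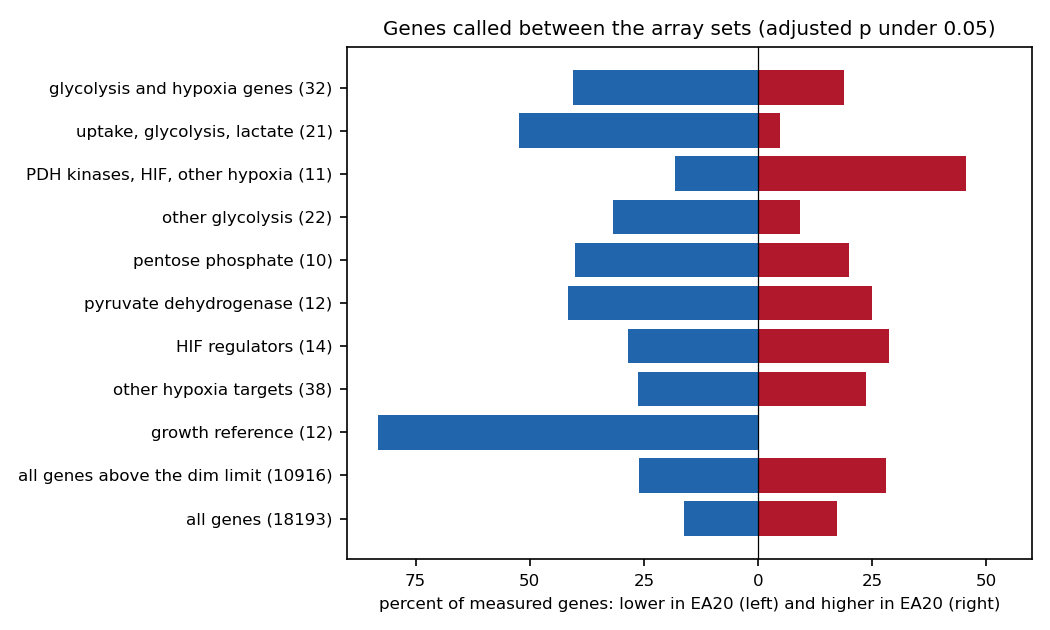
Percent of measured genes called between the array sets in each list and over all genes, lower in EA20 to the left and higher to the right (limma adjusted p under 0.05). Of the 32 listed genes 40.6% are lower and 18.8% higher, beside 16.3% and 17.3% of all genes.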

How the data were processed

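The deposited values are linear signal intensities per probe set of 6 Affymetrix mouse arrays, which the authors made in Affymetrix Expression Console according to the submitters' processing notes. Its version and summary method were not stated there. By the values, every array was scaled to a 2% trimmed mean of 500, which hides any change in total mRNA. Of 45101 probe sets, 64 were controls, 34945 had 1 gene symbol, 932 several and 9160 none in the annotation used. Each of 18193 genes was read from its brightest probe set as log2(signal + 16), which understates changes of dim genes. The number of arrays limits precision, and no detection calls were used.

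Groups came from the labels. limma 3.58.1 in R 4.3.3 (lmFit, eBayes with trend) fitted doxycycline and array set, two-sided, with Benjamini-Hochberg adjustment over all genes at 0.05. EA20 alone and the interaction were fitted separately (2 residual degrees of freedom each, against 3), the latter assuming that the lone EA15 arrays vary like the others. On simulated data of 18193 genes the doxycycline fit recovered 41.3%, 56.5% and 93.7% of genes changed 1.5-, 2- and 4-fold, with 2 false calls. Members and lists were chosen with earlier results of these data known, so none is independent evidence. Values in all arrays are given for genes called with doxycycline, the 5 with the smallest p per direction there, the 6 per direction between sets, and fixed representatives of each step. In other lists, the 3 smallest p per comparison and each passing gene are named. Further values shown were picked after they were seen. Promoters are RefSeq's (GRCm38.p6). Alternatives were normalization, eBayes settings, probe set choice, dim genes, pseudocounts, the block and leaving out each array.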

Additional observations from a re-analysis of the deposited data

How the results depend on the processing

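No paired analysis was possible because the labels carry no replicate numbers; the array set was the block. With doxycycline, the count of listed genes called over all 6 arrays was 0 and became 1, Hk3, without dim genes, with probe sets averaged, without shared probe sets and with a pseudocount of 1. Leaving out arrays gave 0 to 1, the 1 being Ero1a without either EA15 array. Within EA20 the 1 call became 0 without the trend, with probe sets averaged and with a pseudocount of 64, and 2 without dim genes or without shared probe sets; leaving out arrays gave 0 to 1. The interaction called 0 listed genes under every setting run; over all genes it called 30 without dim genes, Arnt among them, and 0 under the others.

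Between the sets, 6 higher calls became 3 without the trend and 12 of 73 with every probe set by itself, and 3 to 6 when arrays were left out. The 13 lower calls became 26 with every probe set, and 8 to 14 when arrays were left out. Of the 19 calls, 12 remained without the trend and 13 without either EA15 array. Pfkl turned to 0.29 (log2) without shared probe sets. In the other lists, 50 set calls became 32 without the trend and 33 to 48 when arrays were left out, and 0 doxycycline calls became 1 without dim genes (Rpia) and 0 to 1 when arrays were left out (Arnt, without either EA15 array). Hk1, Ldha, Pgam1 and Tpi1 gave no value without shared probe sets, which can also read related sequences. Hk3, Vegfa and Pdk1 gained set calls and Ankrd37, Bnip3, P4ha1, Pgk1, Ldha, Slc2a3, Tpi1 and Egln1 lost them under some setting; the causes were not tested. With 3 arrays per group, 9 of the 32 genes had doxycycline intervals reaching past 1.5-fold.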

Other observations

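Within EA20, the arrays numbered 3 were above those numbered 2 in both the untreated and the treated pair for Bnip3 (by 0.74 and 1.06, log2), Ankrd37 (0.76 and 0.71) and the dim Slc16a3 (0.76 and 0.44). These were 3 of the 32 measured genes (9.38%) past 0.3 (log2) in both pairs, against 954 of 18193 genes (5.24%). None of the 32 was lower in both, against 991 of all genes (5.45%). Above the dim limit the higher share was 2 of 29 (6.9%), against 2.05% of all such genes, and the lower share 0 against 1.68%. The array numbers follow accession order and pair nothing in the labels. Of 38 other hypoxia targets 2 were higher in both pairs (5.26%), Hmox1 (0.55 and 0.59) and the dim Adm (0.35 and 0.45). Lower in both were 4 (10.5%), Zfp395, Rora, Ppp1r3c and Plod2, all dim. The 95% intervals of the doxycycline ratio were 0.889 to 2.03 for Bnip3 and 0.594 to 1.37 for Ankrd37.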
